A study of Mus musculus with 6 samples.

Results

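The genes described here encode the vacuolar proton pump and the cathepsins, measured in marrow cells of mice with acute myeloid leukemia (AML) and mice with chronic myeloid leukemia (CML). They were chosen by symbol. All genes whose symbol starts with Atp6v0, Atp6v1 or Atp6ap were taken, apart from Atp6v0d2, together with 11 cathepsins, from Ctsa to Ctsz. This gave 35 of 22180 genes, 24 with a pump symbol and 11 cathepsins. The pump symbols comprised 13 V1 subunits, 7 V0 subunits, 3 accessory proteins and Atp6v1fnb, a neighbour of Atp6v1f that carries its name and is not a pump subunit. Atp6v0c, the main ring proteolipid, had no probe set with 1 symbol and was not analysed here.

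RNA of sorted bone marrow cells was hybridised to 6 arrays, 3 titled AML and 3 titled CML. The labels call the cells osteoblastic and the titles call them stromal. All samples carry the Col2.3 GFP genotype, a reporter in which a fragment of the collagen promoter of bone-forming cells drives green fluorescent protein. In the source name field, all 6 samples read CML, so the direction of each difference rests on the titles. The way leukemia was induced, the strain and the age are not given in the sources used here. Whether each sample is a different mouse is also unstated. The p-values therefore cover only sample-to-sample spread, part or all of which may be technical.

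The vacuolar proton pump is a rotary enzyme with a cytosolic V1 sector, which hydrolyses ATP, and a membrane V0 sector, which carries protons into lysosomes, endosomes and secretory vesicles. Several subunits exist as a broadly expressed isoform and isoforms restricted to tissues such as kidney, brain or testis. Cathepsins are proteases of the same compartments, and most work best at acid pH. In bone marrow these genes are known from osteoclasts, which use the pump to dissolve mineral, from macrophages and dendritic cells, which use cathepsins to process antigen, and from granulocyte precursors, in which cathepsin C activates granule proteases.

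Of the cathepsins, 2 rose in AML, Ctsh and Ctsa, and no pump gene passed the threshold. In limma at an adjusted p under 0.05, 2 of 11 cathepsins and 0 of 24 pump genes were called higher, against 1.83% of all genes. None was called lower, against 0.0812% of all genes. With limma's unadjusted p under 0.05, 8 of the pump and 4 of the cathepsin genes were higher, against 12.6% of all genes, and 3 pump genes and 0 cathepsins were lower, against 8.99%. By value, 23 of the 35 genes were higher in AML, against 38.3% of all genes. The median log2 change, AML minus CML, was 0.75 over the cathepsins, 0.35 over the pump genes and -0.11 over all genes. All 3 AML arrays lay above all 3 CML arrays for 8 pump genes and 5 cathepsins, against 13.3% of all genes. They lay below for 5 pump genes and 0 cathepsins, against 17.9%. Median centring of the arrays moved the median of all genes to 0.04.

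**Figure D1:**
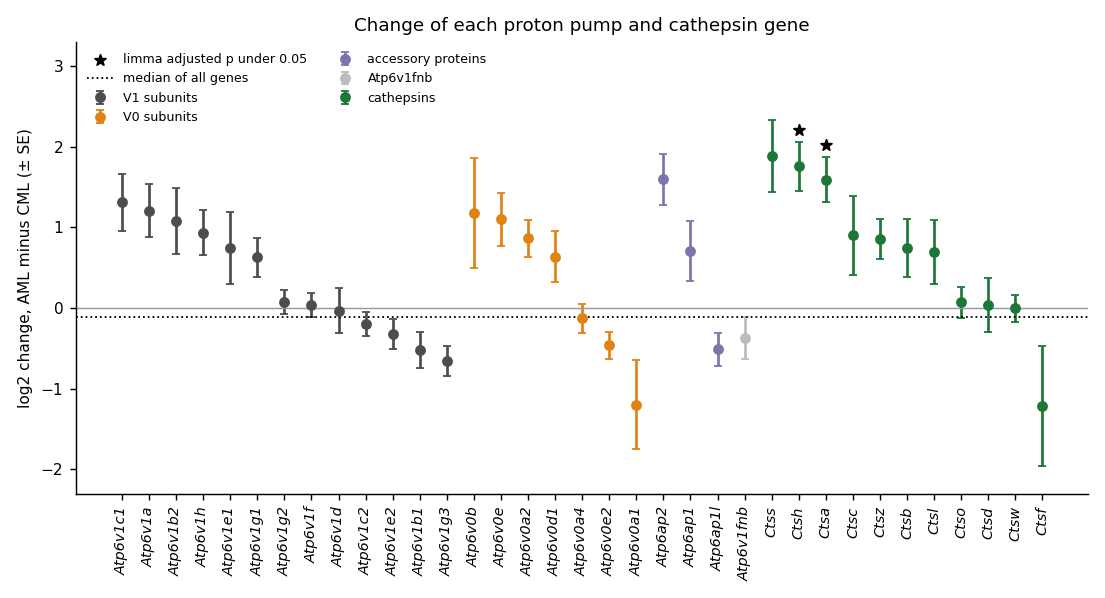
Log2 change, AML minus CML, of each of the 35 genes, with the moderated standard error of limma as bars (3 arrays per group). Genes are grouped as V1 subunits, V0 subunits, accessory proteins, Atp6v1fnb and cathepsins, a star marks an adjusted p under 0.05, and the dotted line is the median of all genes at -0.11. Stars stand over Ctsh and Ctsa, and each family spans values above and below 0.

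Many genes of the lysosome carry the letters CACGTG near their start, the core of the element bound by TFEB, a factor of lysosome formation. RefSeq promoter windows on GRCm38.p6, 250 bases before to 50 after each start, were matched for 26 of the 35 genes by gene identifier, in 28 windows. The letters CACGTG, which read the same on both strands, stood in 8 of the 28 windows (28.6%), against 7.15% of all 32851 windows. With a T before them on either strand (TCACGTG, a subset of the CACGTG matches), they stood in 6 windows (21.4%), against 3.77% of all windows. These 6 windows are shown because they hold the longer match within the 170 bases printed, from 150 before to 20 after the start, 5′ to 3′ on the strand of the gene, with CACGTG in capitals.
Ctsa, chr2:164833623-164833792, plus strand: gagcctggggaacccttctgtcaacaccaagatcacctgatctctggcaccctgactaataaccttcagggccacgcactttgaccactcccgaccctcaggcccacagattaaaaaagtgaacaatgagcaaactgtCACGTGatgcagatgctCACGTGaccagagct
Atp6v1a, chr16:44139240-44139409, minus strand: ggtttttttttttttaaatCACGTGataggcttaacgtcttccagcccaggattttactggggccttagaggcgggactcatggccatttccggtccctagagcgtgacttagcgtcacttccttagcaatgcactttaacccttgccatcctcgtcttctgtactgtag
Atp6v0b, chr4:117887310-117887479, minus strand: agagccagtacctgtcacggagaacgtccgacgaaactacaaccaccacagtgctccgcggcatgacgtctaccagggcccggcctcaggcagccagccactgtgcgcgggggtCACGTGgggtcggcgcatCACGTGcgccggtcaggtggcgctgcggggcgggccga
Atp6v0e, chr17:26676246-26676415, plus strand: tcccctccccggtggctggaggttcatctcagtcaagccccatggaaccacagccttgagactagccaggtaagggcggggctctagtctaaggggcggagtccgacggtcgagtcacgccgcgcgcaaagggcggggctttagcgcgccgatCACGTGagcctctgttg
Atp6v0d1, chr8:105566045-105566214, minus strand: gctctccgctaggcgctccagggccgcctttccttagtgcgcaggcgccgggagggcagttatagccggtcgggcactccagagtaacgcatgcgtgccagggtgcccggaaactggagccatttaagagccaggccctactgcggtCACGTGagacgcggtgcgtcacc
Ctsd, chr7:142387808-142387977, minus strand: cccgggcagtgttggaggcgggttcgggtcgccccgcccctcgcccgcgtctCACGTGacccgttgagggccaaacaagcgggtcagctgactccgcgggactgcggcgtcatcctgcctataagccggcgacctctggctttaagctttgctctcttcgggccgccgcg

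In the printed windows the letters begin 12 bases before the start in Ctsa and again after it, 131 before it in Atp6v1a, 36 and 18 before it in Atp6v0b, 3 before it in Atp6v0d1 and 98 before it in Ctsd. In Atp6v0e they lie just after the start. The 6 genes had log2 changes, AML minus CML, from 0.04 for Ctsd to 1.59 for Ctsa. The 8 genes with CACGTG, which add Ctsl and Ctsf, had a median change of 0.90, and the 18 with a window and no match had a median of 0.005, with ranges that overlapped widely, from -1.21 to 1.59 and from -1.20 to 1.88. The sets also differed in level: all 8 genes with CACGTG lay above the median gene in mean level. Without a match, Atp6v0a4, Atp6v0e2, Atp6v1b1, Atp6v1c2, Atp6v1f, Atp6v1fnb, Atp6v1g3 and Ctso lay below it. All genes below it had a median change of -0.19, and all genes above it 0.17. The medians with and without a match therefore cannot separate the match from level. A match of letters is a description and does not show binding. Of the 4 MiT/TFE factors, which bind such letters, none passed in limma. Tfeb stood at 4.03, 3.98 and 3.98 on AML 1, 2 and 3, against 3.68, 3.99 and 4.13 on CML 1, 2 and 3, below the array median on every array. Tfe3 averaged 5.98 ± 0.10 on the AML arrays and 6.03 ± 0.04 on the CML arrays (log2 intensity, ± SD of 3 arrays). These are RNA levels, and the activity of the factors was not measured. Tfec, the family member of macrophages, was at 8.74, 7.59 and 6.20 on AML 1, 2 and 3, against 5.31, 4.38 and 4.42 on CML 1, 2 and 3, and did not pass (change 2.80 ± 0.63, SE; limma adjusted p = 0.0807).

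Ctsh, a cysteine protease that acts mainly as an aminopeptidase, rose 3.38-fold. Its log2 intensity (probe set 17520233) was 7.68, 8.05 and 7.05 on AML 1, 2 and 3, against 5.81, 5.50 and 6.20 on CML 1, 2 and 3. The groups did not overlap, and AML 3 lay nearest to CML. The averages were 7.59 ± 0.50 over the AML arrays and 5.84 ± 0.35 over the CML arrays (± SD of 3 arrays), a change of 1.76 ± 0.30 (SE; limma adjusted p = 0.0469). Ctsa, a serine carboxypeptidase that also protects lysosomal galactosidase and neuraminidase, rose 3.01-fold. It stood at 8.63, 8.69 and 7.79 on AML 1, 2 and 3, against 6.73, 6.57 and 7.04 on CML 1, 2 and 3 (probe set 17379560). All AML arrays again lay above all CML arrays, with AML 3 the lowest of the AML arrays and CML 3 the highest of the CML arrays. The change was 1.59 ± 0.28 (SE; limma adjusted p = 0.0489). Both calls lay close to the threshold, and with the replicate number as a block neither passed (limma adjusted p = 0.153 for both). They ended after quantile normalization (limma adjusted p = 0.114 for Ctsh and 0.131 for Ctsa), after cyclic loess (0.138 and 0.177), with the trend and robust options (0.0508 and 0.0618), and without AML 1, AML 2, CML 1, CML 2 or CML 3 in turn, while without AML 3 both passed (over the fits without 1 array, limma adjusted p from 0.0412 to 0.186 for Ctsh and from 0.0275 to 0.193 for Ctsa).

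Ctss, the cysteine protease of antigen-presenting cells that trims the invariant chain of MHC class II, had the largest change of the 35 genes and did not pass. It stood at 9.03, 9.27 and 8.39 on AML 1, 2 and 3, against 7.86, 6.16 and 7.02 on CML 1, 2 and 3. The groups did not overlap, and the CML arrays were spread more widely than the AML arrays. The change was 1.88 ± 0.45 (SE; limma adjusted p = 0.0928). Without CML 1 it was 2.31 and passed (limma adjusted p = 0.0479, and up to 0.283 without AML 1). Ctsc, which activates the serine proteases of granules, was at 6.81, 7.46 and 6.83 on AML 1, 2 and 3, against 6.43, 6.93 and 5.02 on CML 1, 2 and 3. CML 2 lay inside the AML range, and the change was 0.90 ± 0.49 (SE; limma adjusted p = 0.310). Without CML 3, the lowest array, it was 0.35.

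Of the remaining cathepsins none passed in limma. Ctsz, a carboxypeptidase also called cathepsin X, was 0.85 ± 0.25 higher by value without overlap, with averages of 7.93 ± 0.32 on the AML arrays and 7.07 ± 0.37 on the CML arrays (± SD of 3 arrays). Ctsb, an abundant endopeptidase, stood between 9.60 and 9.74 on the AML arrays, against 8.22, 9.71 and 8.82 on CML 1, 2 and 3, so that CML 2 lay among the AML arrays. Its change of 0.75 was 0.40 without CML 1 and 1.14 without CML 2. Ctsl, an endopeptidase, stood at 8.33, 6.99 and 6.94 on AML 1, 2 and 3, against 6.38, 6.88 and 6.92 on CML 1, 2 and 3. Its groups were apart by a narrow margin, and most of its change of 0.69 came from AML 1; without AML 1 it was 0.24. Ctsd, the main aspartic protease of lysosomes, differed by 0.04 ± 0.34 (SE), with AML arrays between 9.30 and 9.51, against 8.96, 10.17 and 8.97 on CML 1, 2 and 3. Its sign turned after quantile normalization (-0.13) and cyclic loess (-0.29). Ctso, a cysteine protease, and Ctsw, the cathepsin of cytotoxic lymphocytes, differed by 0.07 ± 0.19 and -0.0006 ± 0.17 (SE). Ctsw stood at 4.47, 4.71 and 4.58 on AML 1, 2 and 3, against 4.33, 4.78 and 4.65 on CML 1, 2 and 3, with the AML arrays inside the CML range and the sign turned under quantile normalization, median centring and cyclic loess (0.11 to 0.16). Ctsf, a cysteine protease, was lower by value. It stood at 4.62, 4.69 and 5.51 on AML 1, 2 and 3, against 4.51, 7.62 and 6.33 on CML 1, 2 and 3. The groups overlapped through CML 1, and the change of -1.21 ± 0.74 did not pass (SE; limma adjusted p = 0.353). It was -0.48 without CML 2 and -2.03 without CML 1.

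**Figure D2:**
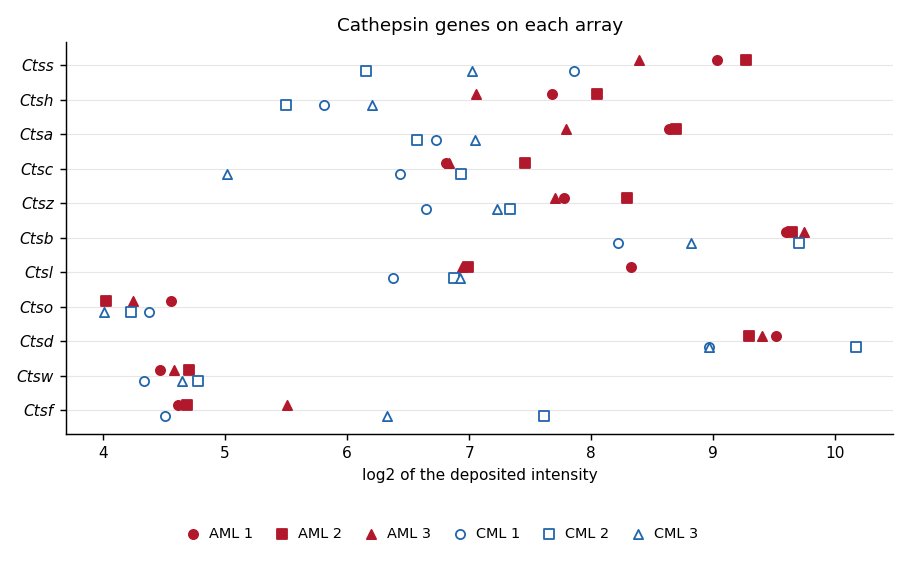
Log2 intensity of the 11 cathepsins on each array, AML as filled red symbols above CML as open blue symbols, with 1 shape per replicate number. Ctss, Ctsh, Ctsa, Ctsz and Ctsl have every AML array above every CML array, while CML 2 is the highest array for Ctsf at 7.62 and Ctsd at 10.17.

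In the V1 sector, 8 of 13 subunits were higher in AML by value and 5 lower, and none passed in limma. The median change was 0.08, with a range from -0.65 to 1.31. The 6 subunits with the largest positive changes were broadly expressed ones. Atp6v1c1, the broad isoform of the C subunit, which locks V1 onto V0, had the largest change. It stood at 7.59, 7.70 and 7.51 on AML 1, 2 and 3, against 6.79, 6.63 and 5.45 on CML 1, 2 and 3, without overlap and with CML 3 the lowest (change 1.31 ± 0.35, SE; limma adjusted p = 0.120). Atp6v1a, the catalytic subunit that hydrolyses ATP, stood at 8.24, 7.45 and 7.35 on AML 1, 2 and 3, against 6.36, 7.01 and 6.05 on CML 1, 2 and 3. Its groups did not overlap, CML 2 lay nearest to AML, and the change was 1.21 ± 0.33 (SE; limma adjusted p = 0.123).

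Atp6v1b2, the broad isoform of the B subunit that pairs with the catalytic one, stood at 9.99, 9.86 and 9.52 on AML 1, 2 and 3, against 8.88, 9.47 and 7.80 on CML 1, 2 and 3. CML 2 came just below AML 3, and the change was 1.08 ± 0.41 (SE; limma adjusted p = 0.207). Without CML 3 it was 0.62. The second probe set of Atp6v1b2 gave a change of 1.51. Atp6v1h, the regulatory H subunit, stood at 7.11, 6.98 and 6.98 on AML 1, 2 and 3, against 5.78, 6.73 and 5.77 on CML 1, 2 and 3. The AML arrays lay close together and CML 2 apart from the other CML arrays. The change was 0.93 ± 0.28 and did not pass, and without CML 2 it was 1.25 and passed (SE; limma adjusted p = 0.140 with all arrays and 0.0394 without CML 2, and up to 0.351 without AML 1). Atp6v1e1 and Atp6v1g1, broad isoforms of the peripheral stalk, were 0.74 ± 0.45 and 0.63 ± 0.24 higher by value (SE), with overlap in the first and none in the second. Atp6v1e1 was at 0.46 without CML 1 and 1.27 without CML 2, and Atp6v1g1 at 0.40 without CML 3. The other probe sets of Atp6v1g1 gave 0.64 and 0.61.

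The rotor subunits and the tissue isoforms of V1 differed little or were lower by value. Atp6v1d, the shaft of the rotor, differed by -0.03 ± 0.28 (SE), since CML 2 at 7.85 lay above every AML array and CML 1 and 3 below them. Its sign turned under median centring (0.12). Atp6v1f, which sits beside the shaft, differed by 0.04 ± 0.15 (SE), at levels below the array medians of 4.11 to 4.35. Atp6v1g3, the kidney isoform of the G subunit, had the largest decrease by value, with 3.97, 4.13 and 3.73 on AML 1, 2 and 3, against 4.32, 4.78 and 4.69 on CML 1, 2 and 3. The groups did not overlap and the change was -0.65 ± 0.19 (SE; limma adjusted p = 0.132). Atp6v1b1, the B isoform of kidney and inner ear, stood at 3.90, 3.89 and 4.14 on AML 1, 2 and 3, against 4.15, 4.42 and 4.91 on CML 1, 2 and 3, a narrow separation with a change of -0.52 ± 0.22 (SE; limma adjusted p = 0.238), or -0.31 without CML 3. Atp6v1c2, Atp6v1e2 and Atp6v1g2, isoforms of epithelia, testis and brain, differed by -0.19, -0.32 and 0.08. Atp6v1c2 turned to 0.02 after cyclic loess, and Atp6v1e2 was at -0.18 without AML 3. Atp6v1fnb differed by -0.37 ± 0.27 (SE), below the array medians on every array, and was at -0.64 without CML 1 and -0.15 without CML 3.

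**Figure D3:**
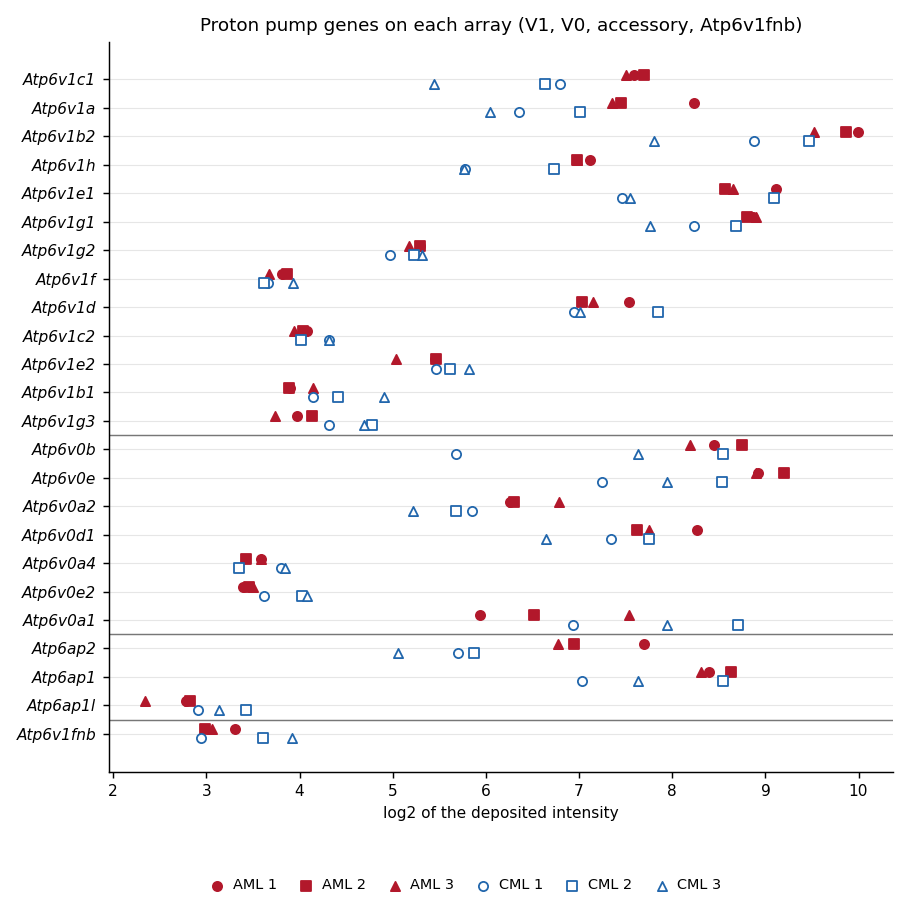
Log2 intensity of the 24 pump genes on each array, AML as filled red symbols above CML as open blue symbols, with 1 shape per replicate number and lines between V1, V0, accessory proteins and Atp6v1fnb. The AML arrays lie to the right for Atp6v1c1, Atp6v1a, Atp6v1b2, Atp6v1h, Atp6v1g1, Atp6v0e, Atp6v0a2 and Atp6ap2, and CML 2, the open square, often lies next to them.

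In the V0 sector, 4 of 7 subunits were higher by value and 3 lower, with a median change of 0.63 and none past the threshold in limma. Atp6v0b, a ring proteolipid, stood at 8.44, 8.75 and 8.19 on AML 1, 2 and 3, against 5.68, 8.54 and 7.63 on CML 1, 2 and 3. The CML arrays spanned more than the difference between groups, and without CML 1 the change was 0.38 and without CML 2 1.81, against 1.18 ± 0.68 with both (SE; limma adjusted p = 0.331 with all arrays). Atp6v0e, a small membrane subunit, stood at 8.92, 9.20 and 8.90 on AML 1, 2 and 3, against 7.24, 8.54 and 7.94 on CML 1, 2 and 3, without overlap (change 1.10 ± 0.32, SE; limma adjusted p = 0.139).

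The isoforms of the a subunit, which lines the proton path, went in opposite directions by value. Atp6v0a2, the isoform of Golgi and endosomes, stood at 6.26, 6.31 and 6.78 on AML 1, 2 and 3, against 5.85, 5.68 and 5.22 on CML 1, 2 and 3, without overlap (change 0.86 ± 0.23, SE; limma adjusted p = 0.116). Atp6v0a1, an isoform prominent in brain, stood at 5.94, 6.51 and 7.54 on AML 1, 2 and 3, against 6.94, 8.71 and 7.95 on CML 1, 2 and 3. The groups overlapped through AML 3 and CML 1, and the change was -1.20 ± 0.55 (SE; limma adjusted p = 0.259), or -0.78 without CML 2. Atp6v0a4, the kidney isoform, differed by -0.13 ± 0.18 (SE) and turned positive, to between 0.02 and 0.09, under the 3 other scalings. Tcirg1 encodes the a isoform of lysosomes and of the osteoclast border and lies outside the symbol rule. It stood at 7.85, 7.79 and 6.79 on AML 1, 2 and 3, against 6.15, 5.32 and 6.06 on CML 1, 2 and 3, and did not pass (change 1.63 ± 0.36, SE; limma adjusted p = 0.0770). After median centring Tcirg1 passed (limma adjusted p = 0.0458), with values up to 0.198 under the other settings with all arrays. Whether the changes of the isoforms differ from each other was not tested. Atp6v0d1, the broad d isoform that joins rotor and ring, was 0.63 ± 0.32 higher by value (SE), with CML 2 at 7.75 among the AML arrays, and 0.33 without CML 3. Atp6v0e2 differed by -0.46 ± 0.17 (SE) without overlap, at levels under the array medians.

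The accessory protein Atp6ap2, known as the prorenin receptor and needed for pump assembly, came nearest to the threshold among the pump genes. It stood at 7.70, 6.94 and 6.78 on AML 1, 2 and 3, against 5.70, 5.87 and 5.06 on CML 1, 2 and 3, 3.03-fold higher by value. The groups did not overlap, and the change was 1.60 ± 0.32 (SE; limma adjusted p = 0.0625). It passed after median centring (0.0463) and when only the brighter 50% of genes were tested (0.0408), with limma adjusted p up to 0.124 under the other settings with all arrays. Atp6ap1, the accessory protein Ac45 that guides the pump through the secretory pathway, stood at 8.40, 8.63 and 8.31 on AML 1, 2 and 3, against 7.03, 8.55 and 7.63 on CML 1, 2 and 3. CML 2 lay among the AML arrays, and the change was 0.71 ± 0.37 (SE; limma adjusted p = 0.299). It was 0.36 without CML 1 and 1.11 without CML 2. Atp6ap1l, a relative of Ac45, stood at 2.78, 2.82 and 2.34 on AML 1, 2 and 3, against 2.91, 3.42 and 3.13 on CML 1, 2 and 3, all far under the array medians (change -0.51 ± 0.21, SE; limma adjusted p = 0.220).

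By value, the direction of change differed with level, over all genes as among the pump genes. This split was made after the values were seen. In the upper 50% of genes by mean level, 13 of 16 pump genes and 8 of 10 cathepsins were higher in AML by value, against 59.8% of all genes there. The median change was 0.80 for both families and 0.17 for all genes in that part. There the AML arrays lay wholly above for 8 pump genes, against 24.1% of all genes, and wholly below for 1, against 9.68%. In the lower 50%, 7 of 8 pump genes were lower by value and 1 (12.5%) was higher, near the 16.8% of all genes there that were higher. The AML arrays lay wholly above for 0 of the 8, against 2.52% of all genes, and wholly below for 4, against 26.2%. The median was -0.41 for these pump genes and -0.19 for all genes there. The AML arrays had the larger spread of log2 values, with an SD from 1.88 to 1.91, against 1.75 to 1.83 on the CML arrays. Under quantile normalization and cyclic loess, which give the arrays like distributions, the same 16 pump genes had medians of 0.63 and 0.53, with 13 higher by value in each, and all genes of that part had medians of 0.06 and 0.04. The 8 dimmer pump genes had medians of -0.25 and -0.21, with 2 and 3 of them higher by value. All genes of the lower 50% then had medians of -0.06 and -0.02, with 38.1% and 45.2% higher by value, against 16.8% as fitted. The cathepsin and pump medians differed by 0.39 over all members and by -0.0022 in the upper 50%.

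**Figure D4:**
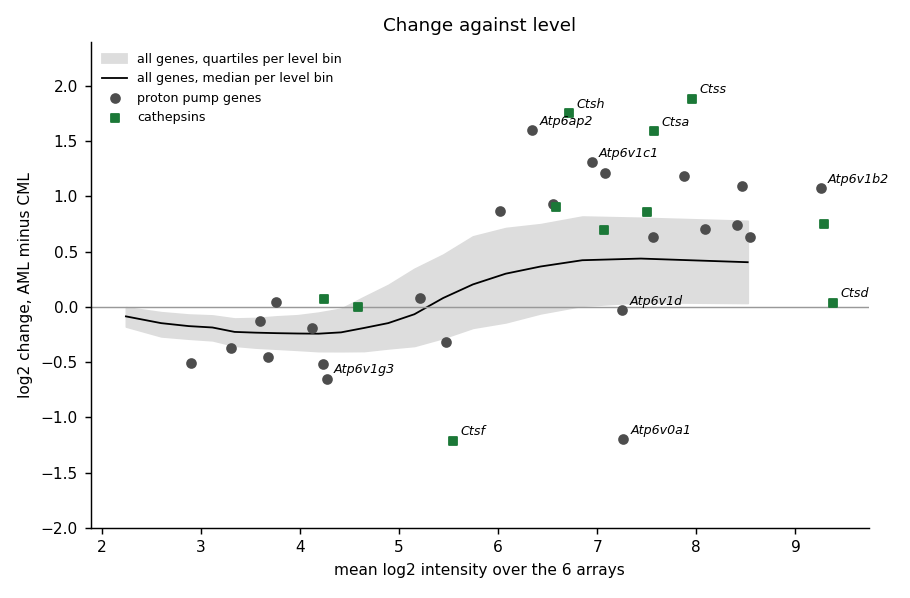
Log2 change, AML minus CML, against the mean log2 intensity over the 6 arrays, with pump genes as circles and cathepsins as squares. The line and band give the median and quartiles of all genes in 20 bins of level with 1108 to 1110 genes each, which run from below 0 at low levels to 0.40 in the highest bin.

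Over all genes the CML arrays correlated less with each other (r from 0.905 to 0.931) than the AML arrays (r from 0.955 to 0.966), and CML 2 stood apart from CML 1 and CML 3 for the pump genes. The mean log2 level of the 16 pump genes in the upper 50%, each gene relative to its mean over the 6 arrays, was 0.42, 0.30 and 0.26 on AML 1, 2 and 3, against -0.60, 0.23 and -0.61 on CML 1, 2 and 3. CML 2 was the highest CML array for 12 of these 16 genes. The mean over the 11 cathepsins was 0.42, 0.42 and 0.16 on AML 1, 2 and 3, against -0.56, -0.05 and -0.38 on CML 1, 2 and 3. Without CML 2 the median change was 0.56 over the 24 pump genes and 0.99 over the cathepsins, against 0.35 and 0.75 with it. Without CML 1 the medians were 0.18 and 0.52.

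Markers of leukocytes and primary granules, and part of those of monocytes and macrophages, moved with the groups. Their part in these results was not tested. In bulk samples, fewer cells of a type and less RNA per cell cannot be told apart. All 8 leukocyte markers were higher in AML by value, against 38.3% of all genes, and 2, Vav1 and Ptpn6, passed in limma, against 1.83%. None (0) of the 8 lay below the median gene in mean level. Above that gene, 59.8% of all genes were higher by value and 396 of 11090 were called higher. The mean level of the 8 markers ran from 0.33 to 1.24 on the AML arrays and from -1.81 to 0.10 on the CML arrays, lowest on CML 2. Ptprc, the leukocyte marker CD45, was 9.30, 9.00 and 8.17 on AML 1, 2 and 3, against 8.27, 4.96 and 6.16 on CML 1, 2 and 3. All 6 primary granule genes rose, against 1.83% of all genes. Their mean levels ran from 0.96 to 2.17 on the AML arrays and from -1.95 to -1.36 on the CML arrays. Of 12 monocyte and macrophage markers, 3 rose (Cd68, Ccr2 and Mpeg1), against 1.83% of all genes, and 7 were higher by value. The other 5, Mrc1, C1qa, C1qb, C1qc and Marco, were lower by value. All AML arrays lay above all CML arrays for 6 of the 12, against 13.3% of all genes. They lay below for 3 (Mrc1, C1qa and Marco), against 17.9%. Above the median gene in mean level, where all but 2 of the 12 lay, these shares of all genes were 24.1% and 9.68%. Cd68 averaged 8.25 ± 0.78 on the AML arrays and 5.45 ± 0.70 on the CML arrays (± SD of 3 arrays). Its call ended after quantile normalization and cyclic loess (limma adjusted p = 0.0934 and 0.102), and of the fits without 1 array it held only in that without AML 3 (limma adjusted p from 0.0413 to 0.190 over those 6 fits). The mean level of the 12 markers ran from 0.02 to 0.81 in AML and from -0.75 to -0.37 in CML.

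Of the osteoblast and osteoclast markers none passed in limma. All 10 measured osteoblast markers were lower in AML by value, with mean levels from -1.31 to 0.23 in AML and from -0.62 to 2.04 in CML. Col1a1, the collagen of bone, averaged 8.59 ± 1.30 on the AML arrays and 10.30 ± 1.62 on the CML arrays (± SD of 3 arrays), above the array median on every array; its change of -1.71 was -1.05 without AML 3 and -0.88 without CML 3. Of 10 osteoclast markers, 4 were higher and 6 lower by value, and their mean level ran from -0.11 to 0.14 in AML and from -0.12 to 0.14 in CML. Nfatc1 had the largest change of the 10, 1.18 ± 0.24 without overlap (SE; limma adjusted p = 0.0670). Atp6v0d2, the osteoclast isoform of the d subunit, averaged 2.81 ± 0.30 on the AML arrays and 2.48 ± 0.07 on the CML arrays, under the array medians. Ctsk, the collagen-degrading cathepsin of osteoclasts, averaged 3.95 ± 0.61 on the AML arrays and 4.49 ± 0.69 on the CML arrays. Acp5, the osteoclast phosphatase TRAP, was highest on CML 2, at 7.60, against 5.33 to 6.36 on the other arrays. Of 7 cytotoxic lymphocyte markers none passed in limma, and 6 were lower by value. The other, Nkg7, had the largest change of the 7, 1.68 ± 0.37 without overlap (SE; limma adjusted p = 0.0789). By comparison, 38.3% of all genes were higher by value. The share was 16.8% below the median gene in mean level and 59.8% above it. Below it lay 6 osteoclast, 5 cytotoxic lymphocyte and 0 osteoblast markers. The counts of lower osteoclast and cytotoxic lymphocyte markers therefore do not set these lists apart from all genes. No marker was at 0 on any array, but the lowest intensity of any probe set was 2.71. A value above 0 therefore does not show that a marker was detected.

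**Figure D5:**
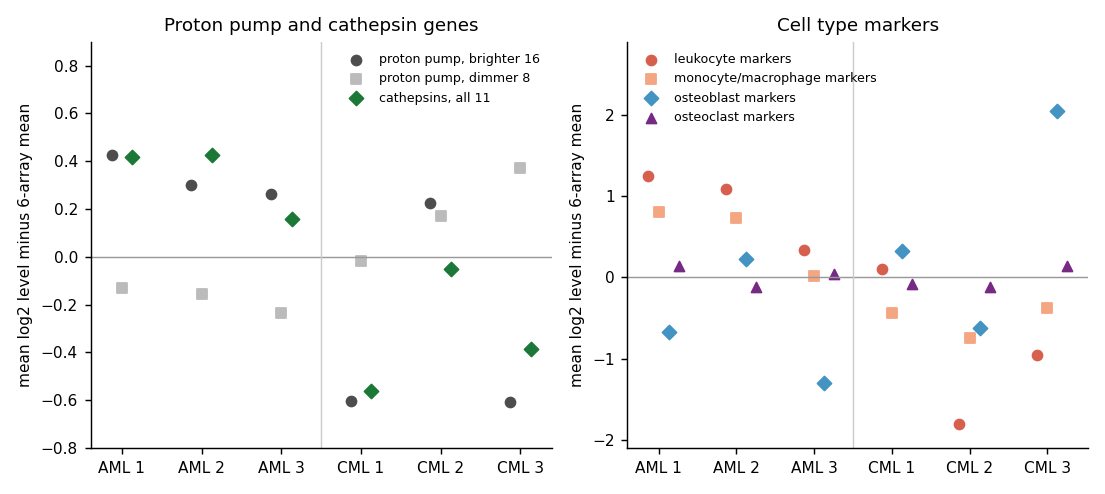
Mean log2 level of gene lists on each array, each gene taken relative to its mean over the 6 arrays, with AML to the left of CML. In the left panel the 16 pump genes in the upper 50% by level are at 0.23 on CML 2 and near -0.6 on CML 1 and CML 3; in the right panel the leukocyte markers are lowest on CML 2, at -1.81.

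Among 46 related genes outside the rule, 4 rose and 0 fell, against 1.83% and 0.0812% of all genes. Of 18 pump assembly and regulatory genes, Rogdi, which encodes a component of the complex that assembles V1 with V0, rose. It stood at 8.76, 8.61 and 7.88 on AML 1, 2 and 3, against 6.07, 6.64 and 6.88 on CML 1, 2 and 3 (change 1.89 ± 0.30, SE; limma adjusted p = 0.0423). Dmxl2, which encodes another part of that complex, was 1.38 ± 0.30 higher by value, and Wdr7 and Dmxl1, of the same complex, 0.35 and 0.21. Over the 18 genes, 15 were higher by value, against 38.3% of all genes and 59.8% of those above the median gene in mean level. The 3 lower by value included Ncoa7 at -1.30 and Tmem9 at -0.98. Of 8 genes for processing and sorting of lysosomal enzymes, Gnptab, the enzyme that starts the mannose 6-phosphate tag on them, rose. It stood at 6.33, 6.37 and 5.67 on AML 1, 2 and 3, against 3.57, 3.81 and 3.69 on CML 1, 2 and 3, with the groups far apart (change 2.44 ± 0.22, SE; limma adjusted p = 0.0151). Of the receptors that carry tagged enzymes, M6pr was 1.17 ± 0.30 and Igf2r 0.10 ± 0.25 higher by value (SE), and whether these changes differ was not tested. Lgmn, the legumain that processes some cathepsins, was at 5.20, 5.94 and 5.83 on AML 1, 2 and 3, against 5.05, 8.08 and 5.89 on CML 1, 2 and 3, high on CML 2, without which its change of -0.68 turned to 0.19.

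Of 11 cathepsin inhibitors, Stfa1, a stefin of neutrophils, rose, at 12.08, 10.91 and 11.01 on AML 1, 2 and 3, against 7.82, 7.70 and 8.34 on CML 1, 2 and 3 (change 3.38 ± 0.35, SE; limma adjusted p = 0.0203). The stefin genes are near copies of each other, so their probe sets may share signal. Stfa3 and Stfa2l1 were 3.26 and 1.81 higher by value. Over the 11 inhibitors, 7 were higher and 4 lower by value, against 38.3% of all genes higher. Csta1 had the largest decrease by value, -1.11 ± 0.36 (SE; limma adjusted p = 0.163). Cst3, the secreted inhibitor cystatin C, averaged 10.79 ± 0.32 on the AML arrays and 9.43 ± 0.71 on the CML arrays (± SD of 3 arrays; change 1.36 ± 0.37, SE; limma adjusted p = 0.120). Outside the 11 cathepsins of the rule, Ctsg, the serine protease of primary granules, rose, at 11.37, 10.40 and 9.53 on AML 1, 2 and 3, against 7.21, 7.04 and 7.54 on CML 1, 2 and 3 (change 3.17 ± 0.45, SE; limma adjusted p = 0.0320). Ctsg is also among the 6 primary granule genes above, so it is counted in both lists. Ctse, an aspartic protease, went the other way without passing, at 5.47, 7.18 and 8.52 on AML 1, 2 and 3, against 9.24, 10.21 and 10.01 on CML 1, 2 and 3 (change -2.76 ± 0.73, SE; limma adjusted p = 0.115); it was named after its values were seen. Without AML 1, AML 2 or CML 3, none of Rogdi, Gnptab, Stfa1 and Ctsg passed, and Rogdi and Ctsg also did not without CML 1 or CML 2 (limma adjusted p over the fits without 1 array from 0.0403 to 0.170 for Rogdi, 0.0141 to 0.110 for Gnptab, 0.0308 to 0.110 for Stfa1 and 0.0241 to 0.145 for Ctsg). Calls also ended after quantile normalization for Rogdi (0.0977) and Ctsg (0.0627), and after cyclic loess for Rogdi (0.125), Ctsg (0.0832) and Stfa1 (0.0525), all as limma adjusted p. With the replicate number as a block all of these calls ended, also that of Gnptab (limma adjusted p = 0.144 for Rogdi, 0.0932 for Gnptab, 0.0980 for Stfa1 and 0.114 for Ctsg).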

How the data were processed

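Per the labels' protocols, each sample of sorted marrow cells was hybridised to its own Affymetrix array. The authors deposited a table of intensity, taken as linear because it runs from 2.71 to 8583. Background correction and normalization are not given in the sources used here; limma and lumi are listed without a version or role, per the submitters' processing notes. The arrays do not share a common distribution, with median intensities of 17.2 to 17.8 in AML and 18.6 to 20.4 in CML. No read depth applies, and the number of arrays limits the precision. No detection p-value was used.

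Of 39721 probe sets, 23521 had 1 gene symbol, 1814 several and 14386 none in the platform annotation. RefSeq gene identifiers matched 23328 of those with 1 symbol. Each of 22180 genes was represented by its brightest probe set. Log2 intensity (floor at 1, reached by 0 values) was modelled over all genes by lmFit and eBayes (limma 3.58.1, R 4.3.3). Tests were two-sided, with Benjamini-Hochberg adjusted p under 0.05 as the threshold, and standard errors are the moderated ones. The fit was also run on simulated data with independent normal noise for each gene, as a check of the code. That run does not bear on the calls made here. Figures used matplotlib 3.10.9 under Python 3.11.15.

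The members, related lists and markers were chosen with earlier results of these data known. Lists are therefore described by counts and medians beside all genes, without a test of their own. Values on every array are given for members past the threshold and, in V1, in V0 with the accessory proteins and among cathepsins, for the 4 largest rises and 2 largest falls. Other members, added for description after their values were seen, are given by their change or on the arrays that matter. Of the related genes, those that passed and Tcirg1, Atp6v0d2, Ctsk, Ctsg, Tfeb, Cst3 and Lgmn were named by rule, with Col1a1, Ptprc, Cd68 and Acp5 of the markers. Tfec, Tfe3, Dmxl2, Wdr7, Dmxl1, Ncoa7, Tmem9, M6pr, Igf2r, Stfa3, Stfa2l1, Csta1 and Ctse were named after their values were seen. So were Nkg7 and Nfatc1 of the markers. Settings tried in turn were 3 other scalings (quantile, median centring, cyclic loess), testing only the brighter 50% of genes, averaging probe sets, the trend and robust options of eBayes, replicate number as a block, and omission of single arrays.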

Additional observations from a re-analysis of the deposited data

How the results depend on the processing

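Of all genes, 423 passed as fitted. Quantile normalization left 93, median centring 896 and cyclic loess 64, and none (0) passed with the replicate number as a block, with 3711 genes under 0.05 by limma's unadjusted p; without 1 array it ran from 0 (without AML 1, AML 2 or CML 3) to 438. The count of pump genes called, 0 as fitted, was 1 after median centring, 1 with only the brighter 50% of genes and from 0 to 1 without 1 array. The count of cathepsins called, 2 as fitted, was 0 under quantile normalization, 0 under cyclic loess, 0 with trend and robust options, 0 with the replicate block and from 0 to 2 without 1 array. The median change of the pump genes was 0.80 in the upper 50%, against 0.35 as fitted, and ran from 0.18 to 0.56 without 1 array. The median of the cathepsins was 0.42 after cyclic loess, against 0.75, and ran from 0.52 to 0.99 without 1 array. Their difference, 0.39 as fitted, was 0.25 under quantile normalization, 0.15 under cyclic loess and -0.0022 in the upper 50%, and ran from 0.34 to 0.57 without 1 array. The causes were not tested.

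Signs turned for small changes. After quantile normalization, median centring and cyclic loess, Atp6v0a4 was at 0.0536, 0.0207 and 0.0893 (-0.13 as fitted) and Ctsw at 0.11, 0.15 and 0.16 (-0.0006 as fitted). Ctsd was at -0.13 after quantile normalization and -0.29 after cyclic loess, Atp6v1d at 0.12 after median centring and Atp6v1c2 at 0.0197 after cyclic loess. The median of all genes was 0.040 after median centring, -0.029 after quantile normalization, -0.0071 after cyclic loess and 0.17 in the upper 50%. Without 1 array the changes ran from -0.0225 to 0.15 for Atp6v1g2, from -0.0176 to 0.14 for Atp6v1f, from -0.19 to 0.26 for Atp6v1d, from -0.0679 to 0.20 for Ctso, from -0.17 to 0.44 for Ctsd, from -0.13 to 0.10 for Ctsw, from -0.0636 to 0.16 for Tfeb and from -1.33 to 0.19 for Lgmn. Same-numbered arrays did not all deviate together over all genes (r = 0.24, -0.30 and -0.25 for numbers 1, 2 and 3). With 3 arrays per group, whose deviations are taken from their own mean, these values cannot decide whether the numbers pair the samples. Genes at low levels had no measure of background here.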
